A study of Mus musculus with 19 samples.

Results

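The 8 genes described here, Ctse, Mme, Asic5, Abcd2, Atox1, Dad1, Arhgef40 and Tmem260, were selected from 22180 genes measured in mouse liver because their values in animals labelled WT on a normal diet stood apart from those of every other group. RNA of whole livers, from animals 2 to 3 months of age after 4 weeks of high-fat diet (HFD) or normal diet (ND), was hybridised to 19 Affymetrix arrays, 1 array per animal. The genotype codes TG, KO and WT are not spelled out in the sample titles, and the gene they refer to is named only by the series title: Kcp, for Kielin/chordin-like protein, a secreted modulator of BMP and TGF-beta signals. The groups were TG HFD (4 arrays), KO HFD, WT HFD, TG ND, KO ND and WT ND (3 arrays each). No strain, sex, promoter that drives a transgene, line, litter or time of harvest is stated in the sources used here. The titles carry animal numbers that mostly run on within a group and differ in style between the diets, so cohort and group cannot be told apart for any result below. That the arrays of a group come from separate animals is taken from these numbers only.

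The 19 arrays had medians between 0.983 and 1.075 on the log2 scale of the deposited values. Kcp lay between 5.52 and 5.81 in TG HFD livers and between 5.35 and 5.72 in TG ND livers, above its range of 1.64 to 2.82 over all KO and WT livers. The difference of KO from WT at the 1 Kcp probe set did not pass the test on HFD (-0.22, SE 0.20, limma adjusted p = 0.844) or on ND (-0.52, SE 0.20, limma adjusted p = 0.215), and whether that probe set lies in a deleted part is not given in the sources used here. The 11 measured hepatocyte markers, such as albumin and apolipoprotein genes, averaged 9.71 to 10.17 over the 16 arrays of the other groups and 10.02 to 10.21 over the WT ND arrays.

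The 8 genes do different things in a cell. Ctse encodes cathepsin E, an aspartic protease of the endosomal system, and Mme encodes neprilysin, a zinc metallopeptidase of the cell surface that cleaves small peptides. Asic5 encodes a member of the acid-sensing and epithelial sodium channel superfamily that responds to bile acids in rodents, and it is known from bile duct cells. Abcd2 encodes a peroxisomal ABC transporter for very-long-chain fatty acyl-CoA. Atox1 encodes a chaperone that hands copper to the copper pumps Atp7a and Atp7b. Dad1 encodes a subunit of the oligosaccharyltransferase, which attaches N-linked glycans to proteins in the endoplasmic reticulum. Tmem260 encodes a mannosyltransferase that modifies plexins and the MET receptor family. Arhgef40 encodes a guanine nucleotide exchange factor. By the platform annotation and RefSeq, Ctse lies on chromosome 1, Mme and Asic5 on chromosome 3, Atox1 on chromosome 11, Abcd2 on chromosome 15, and Dad1, Tmem260 and Arhgef40 on chromosome 14.

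Upstream sequences of 6 of the 8 genes were held in the RefSeq promoter table (GRCm38.p6), and the 250 bases before the start of 4 of them are shown. Mme and Dad1 are shown as genes with lower values in WT ND livers, by a large and a small difference, and Asic5 and Arhgef40 as genes with higher values there, likewise by a large and a small difference. Capitals mark every match, on either strand, to the letters TATAAA, known as the TATA box, CCAAT, known from many promoters, GGGCGG, known as the GC box, or AGGTCA, known as the nuclear receptor half-site.
Mme, chr3:63294961-63295210, plus strand, the first of 3 listed windows: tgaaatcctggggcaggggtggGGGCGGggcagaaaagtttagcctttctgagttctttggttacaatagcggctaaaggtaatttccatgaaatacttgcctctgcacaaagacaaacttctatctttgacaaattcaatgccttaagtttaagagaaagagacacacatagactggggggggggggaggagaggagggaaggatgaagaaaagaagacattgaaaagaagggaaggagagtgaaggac
Asic5, chr3:81996672-81996921, plus strand: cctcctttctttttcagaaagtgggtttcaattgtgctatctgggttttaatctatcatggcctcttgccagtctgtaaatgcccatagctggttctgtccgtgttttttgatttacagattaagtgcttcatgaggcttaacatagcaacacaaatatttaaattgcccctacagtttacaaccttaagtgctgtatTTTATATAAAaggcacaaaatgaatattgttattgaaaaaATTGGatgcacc
Dad1, chr14:54253930-54254179, minus strand: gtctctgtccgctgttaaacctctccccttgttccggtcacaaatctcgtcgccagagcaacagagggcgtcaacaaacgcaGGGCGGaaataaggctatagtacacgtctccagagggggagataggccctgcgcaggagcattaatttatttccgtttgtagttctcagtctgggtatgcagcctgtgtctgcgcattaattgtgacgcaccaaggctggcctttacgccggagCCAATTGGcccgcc
Arhgef40, chr14:51984583-51984832, plus strand: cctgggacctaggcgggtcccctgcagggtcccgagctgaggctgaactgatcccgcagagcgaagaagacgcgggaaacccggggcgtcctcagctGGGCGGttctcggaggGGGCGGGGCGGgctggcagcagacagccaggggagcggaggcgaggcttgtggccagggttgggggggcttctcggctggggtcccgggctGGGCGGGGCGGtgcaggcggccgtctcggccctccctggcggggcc
The Asic5 window was 35.6% G and C and held 2 overlapping TATAAA matches on opposite strands and 1 CCAAT match. The Mme window was 45.6% G and C with 1 GC box. The Dad1 window was 54.4% G and C with 1 GC box and 2 overlapping CCAAT matches on opposite strands, and the Arhgef40 window was 75.2% G and C with 5 GC boxes, some of which overlap. Of the other genes, Atox1 (60.4% G and C) held 1 GC box and 1 half-site, and the first of the 2 Tmem260 windows (58.8%) held none of the 4 motifs, while the second (43.2%) held 1 TATAAA match. The other 2 Mme windows differed from the one printed, with 73.2% and 73.6% G and C, 2 GC boxes each, and 2 and 1 CCAAT matches. Among 32851 windows of the same length the median was 52.4% G and C, and 12.4% held a TATAAA, 33.8% a CCAAT, 32.7% a GGGCGG and 14.0% an AGGTCA. No motif was present in all of the 4 windows printed, and the matches are a description of letters, not of binding.

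The values that chose the genes are given first, with no test, because the WT ND arrays entered the choice. Ctse had 6.86, 6.10, 7.41 and 7.40 (log2 values throughout) in TG HFD livers, 7.52, 7.97 and 6.92 in KO HFD livers and 8.56, 7.69 and 8.77 in WT HFD livers. On ND it had 7.17, 6.76 and 6.88 in TG livers, 6.36, 6.08 and 6.26 in KO livers and 1.44, 2.04 and 2.01 in WT livers. Every array of the other 5 groups was thus far above every WT ND array, and the lowest of the 16 lay 4.04 above the highest WT ND array. The mean of the 16 arrays minus the WT ND mean was 5.34, measured against WT ND values near or under 2, where background can shrink a difference, so no fold is given. From high to low the group means were WT HFD (8.34 ± 0.57), KO HFD (7.47 ± 0.53), TG HFD (6.94 ± 0.62), TG ND (6.94 ± 0.21), KO ND (6.23 ± 0.14) and WT ND (1.83 ± 0.34), as mean ± SD of 3 arrays, or 4 for TG HFD. Neighbours in that order overlapped in their arrays, except TG ND with KO ND and KO ND with WT ND.

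Mme, the other peptidase, had 7.10, 5.76, 6.66 and 7.65 in TG HFD livers, 7.54, 7.44 and 6.74 in KO HFD livers and 7.78, 7.06 and 7.35 in WT HFD livers. On ND it had 6.28, 6.04 and 6.76 in TG livers, 7.92, 7.59 and 7.56 in KO livers and 3.38, 2.71 and 2.12 in WT livers. The 16 arrays lay above the WT ND arrays with a gap of 2.39 and a mean difference of 4.34, or 20.3-fold. The highest group mean was KO ND (7.69 ± 0.20, SD, n = 3), not an HFD group, and the lowest after WT ND was TG ND (6.36 ± 0.37). Apart from WT ND, each group overlapped in its arrays with its neighbour in the order of means.

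Abcd2, the peroxisomal transporter, had 4.81, 5.36, 7.20 and 6.34 in TG HFD livers, 6.85, 7.32 and 6.06 in KO HFD livers and 6.73, 5.41 and 6.70 in WT HFD livers. On ND it had 4.66, 4.86 and 4.28 in TG livers, 5.10, 5.11 and 6.17 in KO livers and 2.82, 1.91 and 1.83 in WT livers. The gap to WT ND was 1.46 and the mean difference 3.62, with 2 of the 3 WT ND values under 2, so no fold is given here either. Among the 16 arrays of the other groups it spread over 3.04, the widest range of the 8 genes, with TG HFD alone covering 4.81 to 7.20. The 3 HFD means (5.93 to 6.74) lay above the TG ND and KO ND means (4.60 and 5.46), but the arrays of TG HFD overlapped with those of both.

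Asic5 ran the other way. It had 4.14, 4.30, 4.03 and 4.62 in TG HFD livers, 4.04, 3.81 and 3.71 in KO HFD livers and 4.61, 4.38 and 4.18 in WT HFD livers. On ND it had 3.85, 3.66 and 4.32 in TG livers, 4.67, 4.57 and 4.99 in KO livers and 7.47, 7.84 and 7.80 in WT livers. The 16 arrays lay wholly below the WT ND arrays, with a gap of -2.47 and a mean difference of -3.46, which is 11.0-fold higher in WT ND. Group means from low to high were KO HFD (3.85 ± 0.17), TG ND (3.95 ± 0.34), TG HFD (4.27 ± 0.26), WT HFD (4.39 ± 0.22), KO ND (4.75 ± 0.22) and WT ND (7.70 ± 0.21). Neighbours in that order overlapped in their arrays, except KO ND with WT ND.

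The other 4 genes stood apart by much smaller steps. Tmem260 had 5.88, 5.97, 5.87 and 5.72 in TG HFD livers, 6.19, 6.19 and 6.24 in KO HFD livers and 5.86, 5.83 and 5.82 in WT HFD livers. It had 6.07, 6.06 and 6.25 in TG ND livers, 6.01, 6.06 and 6.00 in KO ND livers and 5.23, 4.96 and 5.08 in WT ND livers. It lay below the 16 others in WT ND by a gap of 0.48, and its mean difference was 0.91 (1.88-fold). Arhgef40 was the other gene with higher values in WT ND: it lay between 2.36 and 3.47 in the 16 others and had 3.96, 4.20 and 4.00 in WT ND livers, a gap of -0.49 and a mean difference of -1.02 (2.03-fold higher in WT ND). Atox1 lay between 5.63 and 6.38 in the 16 others and had 5.18, 5.25 and 5.43 in WT ND livers (gap 0.20, mean difference 0.73, or 1.66-fold). Dad1, the most brightly measured of the 8 probe sets, lay between 8.53 and 9.10 in the 16 others and had 8.15, 8.27 and 8.14 in WT ND livers (gap 0.27, mean difference 0.60, or 1.52-fold). Probe sets differ in brightness for the same amount of RNA, so these levels set no gene against another.

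**Figure D1:**
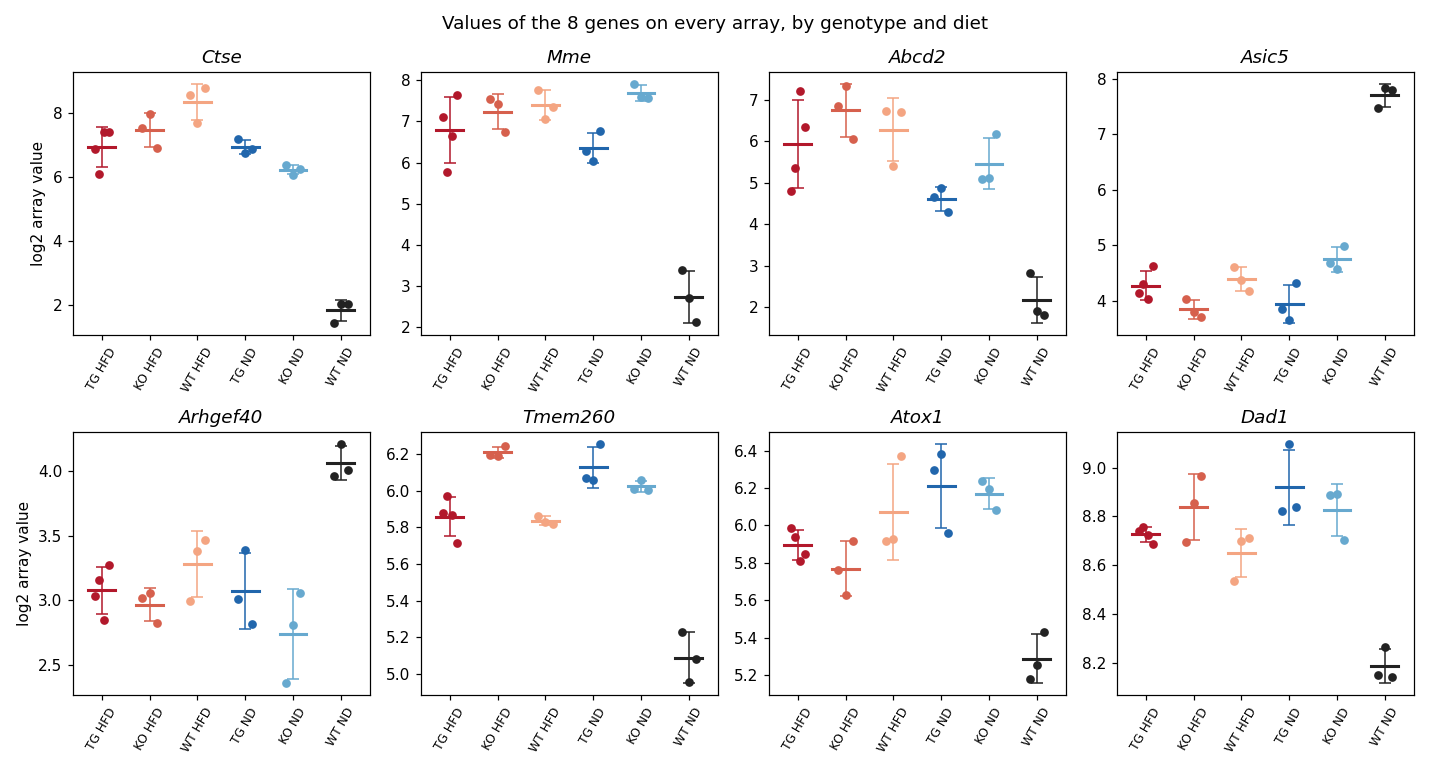
Log2 array values of the 8 genes (y axis, a range of its own in each panel) in the 6 groups (x axis), 1 point per array, with the group mean (bar) and SD (whiskers). The 3 WT ND arrays lie below all 16 others for Ctse, Mme, Abcd2, Tmem260, Atox1 and Dad1, and above them for Asic5 and Arhgef40.

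How far these genes stand apart was set against all genes. The WT ND arrays lay wholly above or wholly below the 16 others for 236 of 22180 genes, which is 1.06% of them, with the others higher for 111 and lower for 125. All 8 genes are among the 236 because they were chosen for that pattern, at ranks 1 (Ctse), 3 (Asic5), 4 (Mme), 6 (Abcd2), 15 (Arhgef40), 16 (Tmem260), 36 (Dad1) and 54 (Atox1) by the size of the gap. The same count for the other groups was 136 for TG HFD (4 arrays, set against 15), 116 for KO HFD, 142 for WT HFD, 147 for TG ND and 264 for KO ND. KO ND, not WT ND, therefore had the most genes apart. Large gaps were more frequent in WT ND, where 11 genes had a gap over 1, against 3 in KO ND (the largest Camk1d, 1.14), 2 in WT HFD (the largest Trim12a, 1.18) and 0 in the other 3 groups. Whether these counts differ between groups was not tested.

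**Figure D2:**
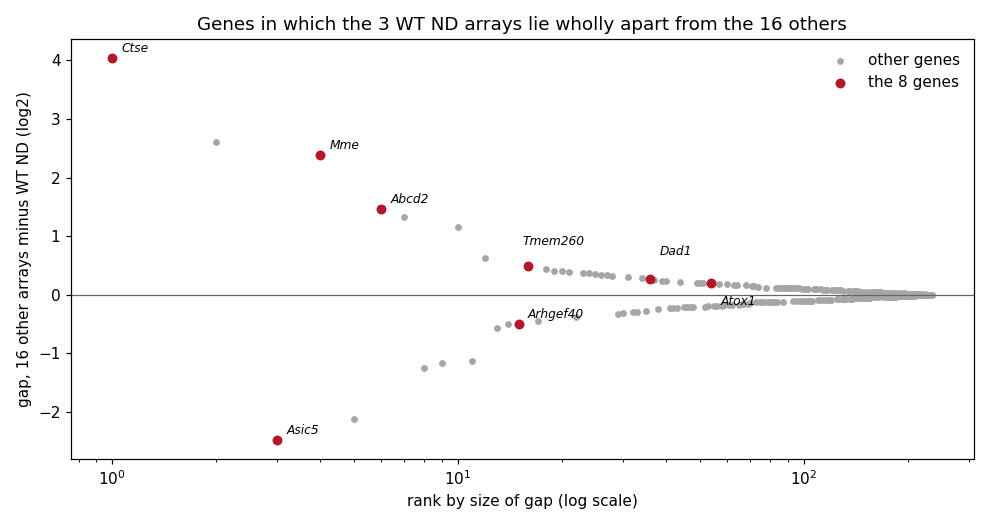
Gap between the 16 other arrays and the nearest WT ND array (y axis, log2, positive where the others are higher) for the 236 genes in which WT ND lies wholly apart, by rank of size (x axis, log scale). Ctse, Asic5, Mme and Abcd2 have gaps of 4.04, -2.47, 2.39 and 1.46, while Arhgef40, Tmem260, Dad1 and Atox1 lie between -0.49 and 0.48 among many other genes.

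The other named genes with the largest gaps were Cyp2c55, Lcn2, Rian, Rps3a1, Rpl3 and Aacs, given as a description by the same measure. Cyp2c55, a cytochrome P450, lay between 0.30 and 3.76 in the 16 others and between 5.87 and 6.52 in WT ND livers, but its second probe set overlapped (1.27 to 2.85 in the others and 1.29 to 1.64 in WT ND). Rian, a long non-coding RNA, lay between 0.34 and 1.07 in the others and between 2.32 and 3.23 in WT ND. Lcn2, which binds bacterial siderophores, lay between 5.15 and 8.87 in the others and between 2.82 and 3.82 in WT ND. Aacs, which activates acetoacetate for lipid synthesis, lay between 5.34 and 7.54 in the others and between 3.71 and 4.71 in WT ND. The probe sets used for the ribosomal protein genes ran in opposite directions: Rps3a1 had 4.90 to 6.10 in the others and 7.27 to 7.76 in WT ND, and Rpl3 had 6.64 to 8.45 in the others and 4.92 to 5.48 in WT ND. The other probe set of Rps3a1 and both others of Rpl3 overlapped between WT ND and the rest. Ribosomal protein genes have many pseudogene copies that can share a probe set, so these 2 genes are uncertain. Each of the 8 genes has 1 probe set, so no second probe set could be set beside it.

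Likeness between genes was measured as the root mean square difference of their mean-centred log2 values over the 19 arrays, where a small value means like profiles. Predicted genes, small RNAs and pseudogenes were passed over. Ctse, Mme and Abcd2 had each other and Aacs as their 3 nearest genes. Mme differed from Abcd2 by 0.88 and from Ctse by 0.92, Ctse from Abcd2 by 1.00, and Aacs from the 3 by 0.90 (Abcd2) to 1.29 (Ctse). Their own root mean square spread about the mean was 2.08 for Ctse, 1.70 for Mme and 1.59 for Abcd2. That spread was 1.31 for Asic5, 0.45 for Arhgef40, 0.37 for Tmem260, 0.33 for Atox1 and 0.25 for Dad1. The measure is not scaled by spread, so a smaller value for a gene of small spread does not mean a closer likeness. The genes nearest to Asic5 were Rian (0.72), Rps3a1 (0.78) and Lnx1, a ubiquitin ligase (0.88). Rps3a1 and Asic5 lie on chromosome 3, 31 measured genes apart. Dad1 was nearest to Acin1 (0.13), a gene of RNA splicing 16 measured genes away on chromosome 14, then to Mtrr (0.15), which reactivates methionine synthase, and Serp1 (0.17). Tmem260 was nearest to Dad1 (0.18), and so was Atox1 (0.20). The nearest gene to Arhgef40 was Slc39a2 (0.24), a zinc transporter gene 4 measured genes away on chromosome 14. All points share the same 19 arrays, and the genes share the step between WT ND and the rest for which they were chosen, so these values describe the profiles and test nothing.

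Gene order was examined because 3 of the 8 genes lie on chromosome 14. For each gene the 5 measured genes on each side were taken, 80 in all, and differences from WT ND were tested for them with limma over all 22180 genes. In WT HFD against WT ND 2 of the 80 neighbours (2.50%) passed an adjusted p of 0.05, in KO ND against WT ND 3 (3.75%) and in TG ND against WT ND 3 (3.75%), where 1.32%, 2.98% and 1.3% of all genes passed. These counts are small, and the 8 genes are not part of them. The WT ND arrays lay wholly apart in 2 of the 80 neighbours, Ctso near Asic5 and Exoc5 near Tmem260, a subunit gene of the exocyst complex with a gap of -0.12, beside 1.06% of all genes. Slc39a2, near Arhgef40, fell in KO ND (-1.11, limma adjusted p = 0.00127) and in TG ND (-0.95, limma adjusted p = 0.00799, and 0.0538 without WT ND replicate 3), while its difference in WT HFD was -0.51 (limma adjusted p = 0.234). Ctso, a cathepsin gene next but one to Asic5, rose in WT HFD (0.82, limma adjusted p = 0.00572), the direction opposite to that of Asic5, and its 16 other arrays all lay above WT ND, with a gap of 0.21. Pm20d1, a secreted enzyme of N-acyl amino acid metabolism near Ctse, rose in WT HFD (0.66, limma adjusted p = 0.0125) and TG ND (0.56, limma adjusted p = 0.0340), with the second call lost on leaving out any 1 of its 6 arrays (up to 0.145, without TG ND replicate 3) and the first lost without 2 of 6 (highest 0.0707, without WT ND replicate 1). Near Mme, the purinergic receptor gene P2ry1 (1.43, limma adjusted p = 0.0230) and the exchange factor gene Arhgef26 (1.63, limma adjusted p = 0.0185) rose in KO ND, and lost the call without 4 and 5 of 6 arrays (highest 0.130, without WT ND replicate 2, and 0.0769, without KO ND replicate 3). Trav9d-3, a T cell receptor segment near Dad1, rose in TG ND (2.04, limma adjusted p = 0.0184) and lost the call without 4 of 6 arrays (highest 0.117, without TG ND replicate 3), and the mean of all its probe sets gave 0.47 (limma adjusted p = 0.214). No neighbour of Abcd2, Atox1 or Tmem260 passed in any of the 3 comparisons.

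Between the genes that share a chromosome, most measured genes did not pass either. Of the 73 measured genes between Tmem260 and Arhgef40, 0 passed in WT HFD, 3 in KO ND (4.11%) and 1 in TG ND (1.37%) against WT ND. Of the 24 between Arhgef40 and Dad1, 0 passed in WT HFD, 0 in KO ND and 1 in TG ND (4.17%). Of the 74 between Mme and Asic5, 4 passed in WT HFD (5.41%), 3 in KO ND (4.05%) and 0 in TG ND, where 1.29%, 2.95% and 1.27% of the 22131 other genes with a position passed. The WT ND arrays lay wholly apart in 3 of these 74 genes (4.05%), of which Ctso is 1, in 1 of the 73 (1.37%) and in 0 of the 24, against 1.03% of the 22131. Whether any of these shares differs from that of all genes was not tested.

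**Figure D3:**
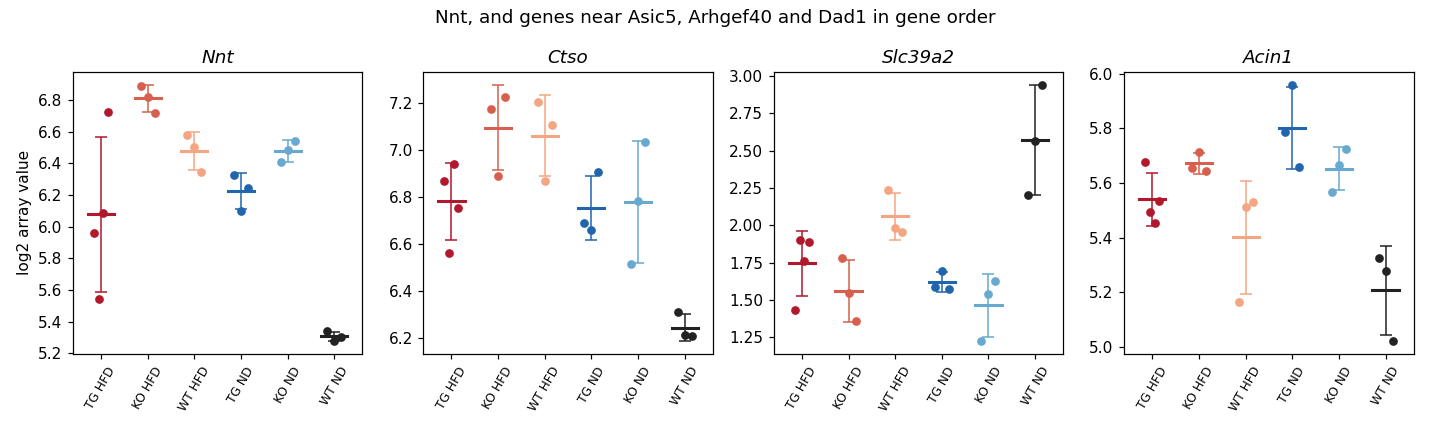
Log2 array values (y axis, a range of its own in each panel) of Nnt, Ctso, Slc39a2 and Acin1 in the 6 groups (x axis), 1 point per array, with the group mean (bar) and SD (whiskers). Nnt and Ctso lie below all 16 other arrays in WT ND, with gaps of 0.21 each, while the WT ND arrays of Slc39a2 and Acin1 overlap with others.

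Nnt, the nicotinamide nucleotide transhydrogenase of mitochondria, was examined because the C57BL/6J mouse strain is known to carry a deletion in it. Nnt had 5.96, 5.55, 6.09 and 6.72 in TG HFD livers and 6.72 to 6.89 in KO HFD livers, 6.34 to 6.58 in WT HFD livers, 6.10 to 6.32 in TG ND livers, 6.41 to 6.54 in KO ND livers and 5.34, 5.28 and 5.31 in WT ND livers. It thus showed the same split as Tmem260 and Dad1, at rank 49 of the 236 genes. It was higher than in WT ND by 1.17 in WT HFD (SE 0.19, limma adjusted p = 0.00277), by 1.17 in KO ND (limma adjusted p = 0.00161) and by 0.92 in TG ND (limma adjusted p = 0.0192, lost without 5 of 6 arrays, highest 0.0786 without TG ND replicate 1). Whether the Nnt probe set lies in the deleted part is not given in the sources used here, and strain and group cannot be told apart with these labels.

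Differences among the other 5 groups do not contain the WT ND arrays, whose distance from the rest chose the genes. The 8 genes were therefore tested in them with limma, with p-values adjusted over all 22180 genes. The arrays of the other 5 groups entered the choice too, as the values from which WT ND stood apart. The choice may thus favour genes that differ little among these groups, and the counts set beside the shares of all genes are a description. The WT ND arrays do enter the estimate of the spread in the model of all 19 arrays, so a model of the 16 arrays of the 5 groups was also fitted, an alternative chosen after seeing the data. The adjusted p of each call without the WT ND arrays is given beside it. In TG HFD against WT HFD 1 of the 8 passed, where 3.57% of all genes did. That gene was Ctse, which fell by 1.40 on the log2 scale (SE 0.31, limma adjusted p = 0.0147, and 0.0225 in the model of 16 arrays), with 6.10 to 7.41 in the TG arrays and 7.69 to 8.77 in the WT arrays. Its call was lost without WT HFD replicate 1 (adjusted p = 0.0826), without WT HFD replicate 3 (0.0924) and when only the arrays of both groups were fitted (0.124). In KO HFD against WT HFD 0 of the 8 passed, against 0.338% of all genes. The differences that did not pass there include Ctse (-0.87, limma adjusted p = 0.442), Asic5 (-0.53, limma adjusted p = 0.387) and Tmem260 (0.37, limma adjusted p = 0.189). Over the 8 genes the median difference was -0.19 in TG and -0.23 in KO against WT on HFD, beside -0.0040 and -0.0045 over all genes, and both comparisons share the WT HFD arrays.

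Some markers of other cell types moved in the same comparison as Ctse. Of 15 measured markers of Kupffer cells and macrophages, 14 were higher in TG HFD than in WT HFD and 0 lower, and their mean log2 value lay between 5.83 and 6.38 in TG HFD livers and between 4.50 and 4.82 in WT HFD livers. None of the 15 had a mean under 2 over all arrays. Cd4 of T cells (1.13, limma adjusted p = 0.0348), Reln of stellate cells (0.43, limma adjusted p = 0.0183) and Lyve1 of the endothelium (1.52, limma adjusted p = 0.0402) were higher too. Fabp2 was the only 1 of 11 measured markers of stomach and gut epithelium, where Ctse is known to be abundant, that passed. It was lower in TG HFD (mean 7.39, against 8.39 in WT HFD livers, limma adjusted p = 0.0215). The other 10 had a mean under 2, and Atp4b, Cblif, Gkn1 and Gkn2 had higher means in TG HFD. The mean of the list, Fabp2 included, lay between 1.31 and 1.45 in TG HFD livers and between 1.45 and 1.60 in WT HFD livers. The median difference of the list was -0.081. The part of any of these markers in the Ctse difference was not tested. In bulk tissue, fewer cells of a type and less RNA per cell cannot be told apart.

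Diet was compared within KO and within TG. In KO HFD against KO ND 1 of the 8 genes passed, against 0.803% of all genes. Asic5 fell by 0.89 on the log2 scale (SE 0.19, limma adjusted p = 0.0332, and 0.0470 in the model of 16 arrays), with 3.71 to 4.04 in KO HFD and 4.57 to 4.99 in KO ND livers. This call was lost on leaving out any 1 of the 6 arrays, with the highest adjusted p at 0.132 without KO ND replicate 3, and when only these arrays were fitted (0.0697). Ctse had 6.92 to 7.97 in KO HFD and 6.08 to 6.36 in KO ND livers, which do not overlap, but the difference of 1.24 did not pass (SE 0.33, limma adjusted p = 0.0957). Abcd2 differed by 1.28 (SE 0.51, limma adjusted p = 0.325). In TG HFD against TG ND 0 of the 8 passed by limma, against 0.906% of all genes. Abcd2 was 1.33 higher (SE 0.48, limma adjusted p = 0.293), against 1.28 in KO, while Ctse differed by 0.0013 (SE 0.31, limma adjusted p = 0.999). Of the 15 macrophage markers 0 passed in either diet comparison, and of the 11 hepatocyte markers 1 fell in each, the cytochrome P450 gene Cyp3a11. In KO HFD against KO ND, where Asic5 fell, 1 of 11 adipocyte markers, Pck1, was also lower (-1.08, limma adjusted p = 0.00911). The group means of Pck1 lay between 9.99 and 11.06, while 6 of the 11 markers, Adipoq and Lep among them, had a mean under 2. Whether fat cells gave the Pck1 difference thus cannot be told. Of 11 stellate cell markers 1, Reln, was higher (0.71, limma adjusted p = 0.00480), and the part of these 2 markers was not tested.

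The diet effects in TG and KO were set against each other directly. In the difference, TG minus KO, 1 of the 8 genes passed, where 1.07% of all genes did, and it was again Asic5. Its diet effect was 0.33 in TG (limma adjusted p = 0.580) and -0.89 in KO, a difference of 1.22 (SE 0.26, limma adjusted p = 0.0274, and 0.0397 in the model of 16 arrays). The call was lost without any of 5 of the 13 arrays (adjusted p up to 0.0820, without TG ND replicate 1) and when only these arrays were fitted (0.0548). For Ctse the same difference was -1.24 (SE 0.45, limma adjusted p = 0.268), for Tmem260 -0.45 (SE 0.14, limma adjusted p = 0.164) and for Abcd2 0.040 (SE 0.70, limma adjusted p = 0.992). Of all the cell type markers, Pck1 (1.43, limma adjusted p = 0.00481) and Reln (-0.61, limma adjusted p = 0.0474) passed in this difference, and their part was not tested.

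KO and TG were compared on each diet. In KO ND against TG ND 1 of the 8 genes passed, against 4.2% of all genes. Asic5 was higher in KO ND by 0.80 (SE 0.19, limma adjusted p = 0.0183, and 0.0262 in the model of 16 arrays), with 4.57 to 4.99 in KO ND and 3.66 to 4.32 in TG ND livers. The call was lost without 3 of 6 arrays (adjusted p up to 0.109, without TG ND replicate 2) and when only these arrays were fitted (0.0728). Mme had 7.56 to 7.92 in KO ND and 6.04 to 6.76 in TG ND livers, without overlap, and the difference of 1.33 missed the threshold (SE 0.38, limma adjusted p = 0.0570). It passed when genes with a mean under 2 were left out (0.0339) and when only these arrays were fitted (0.0122). Ctse was lower in every KO ND array than in every TG ND array (-0.71, SE 0.33, limma adjusted p = 0.316) and passed only when just these arrays were fitted (0.0429). The mean of the 15 macrophage markers lay between 4.56 and 5.12 in KO ND livers and between 5.94 and 6.49 in TG ND livers, with 10 lower in KO ND and 0 higher. In the bile duct list, the cell type for which Asic5 is known, only Sox9 of the 9 measured markers passed, lower in KO ND (-1.92, limma adjusted p = 0.00734). The mean of the 9, Sox9 included, lay between 1.95 and 2.15 in KO ND livers and between 2.23 and 2.38 in TG ND livers. The median difference of the list was -0.044, Krt7, Slc4a2 and Cftr had higher means in KO ND, and 6 of the 9 had a mean under 2. Also lower in KO ND were 4 of 11 stellate cell markers (Hhip, Lum, Pdgfrb and Reln), 2 of 9 T and NK cell markers (Cd3g and Cd4) and 1 of 10 endothelial markers (Dnase1l3). Higher in KO ND were 2 of 11 adipocyte markers, Cidea (3.29, limma adjusted p = 0.0318) and Pck1 (0.72, limma adjusted p = 0.0215). The same held for 1 of 11 gut markers, Fabp2 (1.25, limma adjusted p = 0.00654). Of these lists, 6 adipocyte and 10 gut markers had a mean under 2, so whether fat or gut cells gave these differences cannot be told. The part of these markers in the differences of the 8 genes was not tested.

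In KO HFD against TG HFD 0 of the 8 genes passed by limma, against 2.35% of all genes. Tmem260 came nearest, with 6.19 to 6.24 in KO HFD and 5.72 to 5.97 in TG HFD livers, a difference of 0.35 (SE 0.097, limma adjusted p = 0.0672) that passed when genes with a mean under 2 were left out (0.0244). Atox1, Dad1, Arhgef40 and Abcd2 did not pass in any of the 7 limma tests. Nor did they in any of the 101 values that the alternatives gave for each of them, where the lowest adjusted p was 0.124 for Atox1, 0.346 for Dad1, 0.235 for Arhgef40 and 0.129 for Abcd2.

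**Figure D4:**
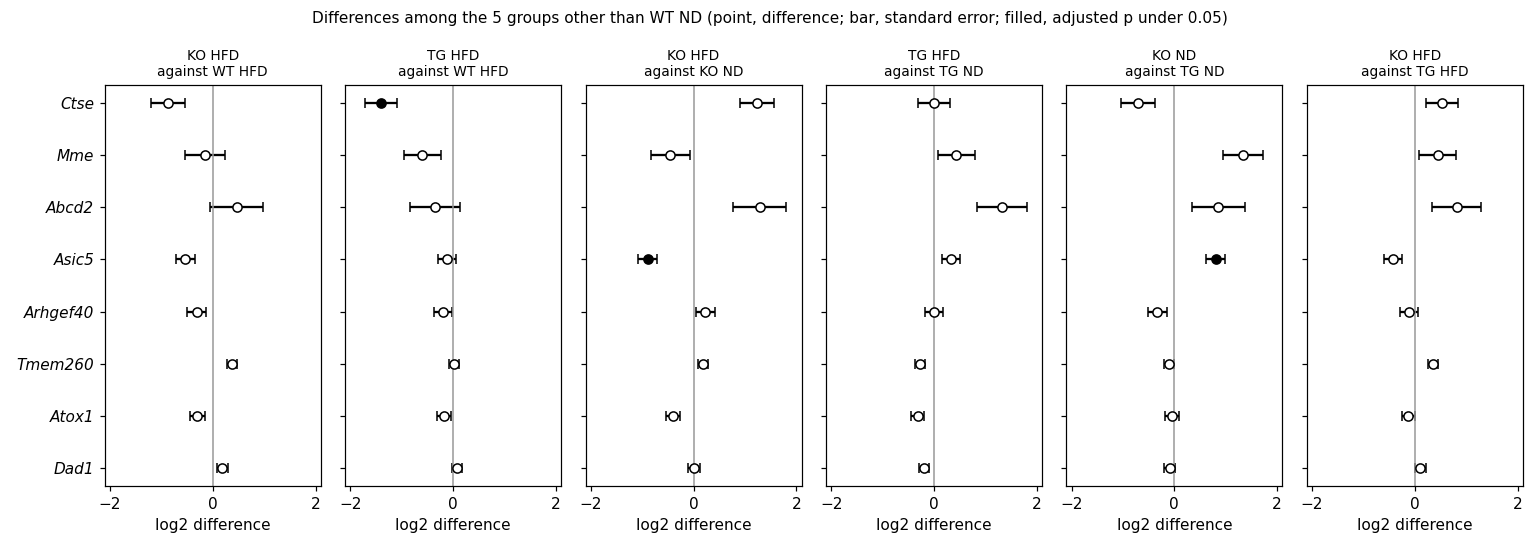
Log2 differences of the 8 genes (x axis, first-named group minus the other; point, difference; bar, moderated SE) in the 6 comparisons that leave out WT ND. Filled points passed an adjusted p of 0.05: Ctse at -1.40 in TG HFD against WT HFD, and Asic5 at -0.89 in KO HFD against KO ND and 0.80 in KO ND against TG ND.

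The pathways of the genes other than Arhgef40 were followed in lists of further genes, to see what relatives of each gene did in the comparisons with WT ND. Over all genes the median differences were 0.0040 in WT HFD, -0.0019 in KO ND and -0.0033 in TG ND, and the shares called are those given above. Among 22 measured cathepsins and other lysosomal proteases, the relatives of Ctse, 1 rose in WT HFD (Ctso), 2 fell in KO ND and 3 rose in TG ND, with medians of -0.043, -0.027 and 0.068. In KO ND these were Ctsf (-0.89, limma adjusted p = 0.0223, lost without 4 of 6 arrays, highest 0.102 without KO ND replicate 3) and Ctsa (-0.58, limma adjusted p = 0.00962, lost without KO ND replicate 2 at 0.0612). In TG ND they were the proteases Ctsc (1.42, limma adjusted p = 3.39e-04), Ctss (1.13, limma adjusted p = 0.00740, lost without TG ND replicate 3 at 0.0538) and Lgmn (0.85, limma adjusted p = 0.0335, lost without 5 of 6 arrays, highest 0.141 without TG ND replicate 2). Ctsc, Ctss and Lgmn are strongly expressed in macrophages, whose markers were higher in TG ND for 13 of 15 (5.94 to 6.49 in TG ND and 4.56 to 4.74 in WT ND livers), and the part of these cells was not tested.

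Among 19 measured relatives of Mme and other cell-surface peptidases, 1 passed: Ide, the insulin-degrading enzyme, rose in WT HFD (0.57, SE 0.096, limma adjusted p = 0.00346, and 0.0890 when only these arrays were fitted). The medians were 0.077 in WT HFD, 0.011 in KO ND and 0.016 in TG ND. Among 7 sodium channels related to Asic5, Scnn1a, the alpha subunit of the epithelial sodium channel, fell in WT HFD (-0.93, SE 0.17, limma adjusted p = 0.00622) and in KO ND (-1.12, SE 0.17, limma adjusted p = 7.62e-04). Its mean was 5.55 in WT HFD, 5.36 in KO ND and 6.13 in TG ND livers, against 6.48 in WT ND livers. In KO ND against TG ND Scnn1a was lower by 0.77 on the log2 scale (limma adjusted p = 0.0116), opposite to Asic5. In KO HFD against TG HFD Scnn1a was lower as well (-0.84, limma adjusted p = 0.00667). There Asic5 was lower too, but did not pass (-0.42, limma adjusted p = 0.289). The medians of the 7 channels were -0.056, 0.080 and -0.072.

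Among 24 measured genes of peroxisomal transport and very-long-chain fatty acids, the relatives of Abcd2, Elovl3, a fatty acid elongase, fell in WT HFD (-1.48, limma adjusted p = 0.00717) and KO ND (-1.85, limma adjusted p = 6.24e-04). In KO ND the carnitine octanoyltransferase Crot also fell (-0.77, limma adjusted p = 0.00832, lost without KO ND replicate 2 at 0.0565). The peroxisome proliferation factor Pex11a rose there (1.16, limma adjusted p = 0.0332, lost without 5 of 6 arrays, highest 0.159 without WT ND replicate 1). None of the 24 passed in TG ND by limma. The list medians were 0.13, 0.11 and -0.10 in WT HFD, KO ND and TG ND. None of the called genes of this list is an ABC transporter.

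Among 15 measured genes of copper handling, the relatives of Atox1, both metallothioneins, which bind zinc and copper, rose in KO ND and TG ND and 0 passed in WT HFD. Mt2 rose by 3.21 in KO ND (SE 0.64, limma adjusted p = 0.00793, and 0.0503 when only these arrays were fitted) and by 4.75 in TG ND (SE 0.64, limma adjusted p = 3.61e-04). All 16 other arrays of Mt2, WT HFD included, lay above WT ND, with a gap of 0.34 at rank 26 of the 236 genes. Mt1 rose by 2.32 in KO ND (limma adjusted p = 0.0150, lost without 3 of 6 arrays, highest 0.0620 without KO ND replicate 3) and by 3.51 in TG ND (limma adjusted p = 7.18e-04). Neither copper pump that Atox1 serves was among those called, and the list medians were 0.056, 0.084 and 0.12. Among 25 genes of the oligosaccharyltransferase and of N-glycan assembly, the relatives of Dad1, 1 passed: the subunit gene Tusc3 rose in KO ND (0.87, limma adjusted p = 0.0312, lost without 5 of 6 arrays, highest 0.155 without KO ND replicate 2). Its list had medians of 0.045 in WT HFD, -0.046 in KO ND and 0.071 in TG ND, beside differences of 0.46, 0.64 and 0.73 for Dad1, which was chosen for them.

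Among 20 measured genes of O-mannosylation and of plexin or MET receptors, the relatives of Tmem260, the receptors Plxna2 (-1.30, limma adjusted p = 0.0205) and Plxnb2 (-0.48, limma adjusted p = 0.0203) fell in KO ND. They lost the call without 4 and 5 of 6 arrays (highest 0.103, without WT ND replicate 2, and 0.0831, without KO ND replicate 2). The medians of that list were 0.12, 0.050 and 0.022. Fitting only the compared arrays also ended the calls of Ctsa (adjusted p = 0.0699), Scnn1a in WT HFD (0.0723), Pex11a (0.0509), Mt1 in KO ND (0.0834), Tusc3 (0.0571), Plxnb2 (0.0955), Slc39a2 in TG ND (0.0591), Pm20d1 (0.0992 in WT HFD and 0.0828 in TG ND) and Trav9d-3 (0.0721).

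Markers of other cell types were set beside the split of the 8 genes, as mean log2 values per array, with the 16 other arrays before the WT ND arrays. Stomach and gut epithelium, where Ctse is known to be abundant, had 1.31 to 1.60 over its 11 measured markers in the others and 1.41 to 1.48 in WT ND livers, and 10 of the 11 had a mean under 2, while Fabp2, a fatty acid-binding protein, was higher in KO ND (0.95, limma adjusted p = 0.0472). Kidney, where Mme is abundant, had 0.45 to 0.75 and 0.59 to 0.66 over 9 markers, all 9 with a mean under 2. Adipocyte markers, listed because fat tissue expresses Abcd2, had 3.03 to 3.74 and 3.06 to 3.19 over 11 markers, 6 of them with a mean under 2. Of the 11, Cidea (3.18, limma adjusted p = 0.0494) and Pck1 (0.91, limma adjusted p = 0.00598) were higher in KO ND than in WT ND. Whether fat or gut cells gave the differences of Cidea, Pck1 and Fabp2 cannot be told in bulk tissue. Bile duct markers, listed because cholangiocytes are known to express Asic5, had 1.95 to 2.46 and 2.14 to 2.45 over 9 markers, 6 of them with a mean under 2. Only Sox9 of the 9 passed, lower in KO ND (-1.69, limma adjusted p = 0.0230). In each of these 4 lists the WT ND arrays lay within the range of the others.

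The remaining lists showed no split either, apart from that of erythroid cells. All measured markers of B cells (8), neutrophils (10), T and NK cells (9) and exocrine pancreas (8) had a mean under 2, where background can shrink a difference. So did 6 of the 7 dendritic cell markers, and a split in these 5 lists could thus be missed. The range over the others and then over WT ND was 4.50 to 6.49 and 4.56 to 4.74 for macrophages (of 15, Marco lower in WT HFD and in KO ND, by -1.81 and -1.76, and 13 higher and 0 lower in TG ND), 1.31 to 1.79 and 1.51 to 1.81 for dendritic cells, 0.56 to 1.08 and 0.72 to 0.86 for B cells, and 0.57 to 2.07 and 0.56 to 0.80 for neutrophils. It was 0.78 to 1.57 and 0.94 to 1.02 for T and NK cells, 0.67 to 1.08 and 0.73 to 0.97 for exocrine pancreas, 4.06 to 5.11 and 4.10 to 4.43 for stellate cells and fibroblasts, and 5.31 to 5.90 and 5.49 to 5.67 for endothelium. The calls of Marco in WT HFD (limma adjusted p = 0.0250) and KO ND (limma adjusted p = 0.0170) were each lost without 4 of 6 arrays. Their highest adjusted p was 0.146, without WT HFD replicate 1, and 0.0921, without KO ND replicate 2. The mean of the 4 measured erythroid markers lay lower in WT ND livers, with 0.70 to 1.09 in the others and 0.51 to 0.59 in WT ND. All 4 had a mean under 2, and 0 of them passed in the 3 comparisons with WT ND. Klf1 and Slc4a1 had their lowest group mean in WT ND. Epb42 was lower in TG ND and KO HFD than in WT ND, and Ermap was lower in every other group except KO HFD. The part of these markers in the values of the 8 genes was not tested.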

How the data were processed

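The authors' deposited table gives log2 values per probe set. Affy, RMA and limma are named in the submitters' processing notes without versions or roles. The log base and a normalization across arrays before deposit were inferred from these names, the range of the values and their near-equal medians. Of 41345 probe sets, 23521 have 1 gene symbol in the platform annotation, 1814 several and 16010 none here, and only the first kind was used. Through Entrez identifiers 23328 of them matched a RefSeq gene table (GRCm38.p6), and no symbol changed. The probe set with the highest mean stood for each of 1082 genes with more than 1. Of the 22180 genes, 56.5% had a mean log2 value under 2, where background can shrink differences, and no filter was applied.

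A linear model of the 6 group means was fitted to the 19 arrays with the functions lmFit and eBayes of limma 3.58.1, run in R 4.3.3. The residual degrees of freedom were 13 and the prior degrees of freedom 4.76. Tests are two-sided and adjusted by the Benjamini-Hochberg method over all genes within each comparison. The script was tested on simulated data. Ranks and sequence counts were computed with pandas 2.3.3. Arrays have no read depth, and their number limits the precision. Alternatives were the mean of all probe sets, a filter on dim genes (mean log2 of at least 2), median centring, repeated quantile normalization, eBayes with trend and robust settings, the compared arrays alone, each replicate left out and, chosen after seeing the data, the 16 arrays without WT ND.

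The members and all lists were chosen with earlier results of these data known. Named genes are the 8 members, called genes of the pathway lists (up to 4 per comparison), the 10 genes with the largest gap, the 3 most like genes per member, called neighbours, Kcp and Nnt. Predicted genes, small RNAs and pseudogenes were not named, which passed over 2 genes within the order of largest gaps. The list for the pathway of Arhgef40 is not reported here.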

Additional observations from a re-analysis of the deposited data

Results flagged for a closer look

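The response of Asic5 to diet differed between TG and KO livers by a test of the difference itself. The log2 difference of HFD from ND was 0.33 in TG and -0.89 in KO, which gives 1.22 for TG minus KO (SE 0.26, limma adjusted p = 0.0274, 13 arrays). All 3 KO HFD arrays (3.71 to 4.04) lay below all 3 KO ND arrays (4.57 to 4.99), while the TG HFD arrays (4.03 to 4.62) overlapped with the TG ND arrays (3.66 to 4.32). The call did not survive the removal of any of 5 of the 13 arrays, with adjusted p-values up to 0.0820.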

How the results depend on the processing

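No paired analysis was possible because the labels give the groups no shared replicate numbers. Of 137 counts of called genes recomputed under the alternatives, 93 stayed within 1.5 times the main count, 41 fell below that and 3 rose above it. Of the 599 recomputed values of named genes and gaps, 118 lost the call of the main fit, 4 gained a call and 6 gaps moved. None of the 599 changed sign, which a gap could not do on leaving out a WT ND array. With only genes of mean log2 of at least 2, the count, with the main count in brackets, was 292 (178) for KO HFD against KO ND, 310 (201) for TG HFD against TG ND and 371 (238) for the diet effect in TG minus that in KO. With the compared arrays only, it was 37 (75) for KO HFD against WT HFD, 248 (791) for TG HFD against WT HFD, 62 (178) for KO HFD against KO ND, 55 (201) for TG HFD against TG ND, 156 (522) for KO HFD against TG HFD and 139 (293) for WT HFD against WT ND. This alternative estimates the spread from fewer arrays, and otherwise the cause was not tested. Leaving out 1 array gave 37 (without KO HFD replicate 1) to 73 genes for KO HFD against WT HFD, 401 (without WT HFD replicate 1) to 865 for TG HFD against WT HFD, 27 (without KO ND replicate 2) to 159 for KO HFD against KO ND, and 73 (without TG ND replicate 1) to 182 for TG HFD against TG ND. It gave 568 to 783 for KO ND against TG ND, where the full count was 931, 271 (without KO HFD replicate 2) to 598 for KO HFD against TG HFD, 166 (without WT HFD replicate 1) to 295 for WT HFD against WT ND, 353 (without KO ND replicate 2) to 494 for KO ND against WT ND (661 in full), 165 (without TG ND replicate 3) to 226 for TG ND against WT ND (289 in full) and 112 (without KO ND replicate 2) to 296 for TG minus KO. The model of the 16 arrays without WT ND, chosen after seeing the data, kept the 4 calls of Ctse and Asic5 and moved no count beyond 1.5 times. The gaps of the 8 genes kept their sign under median centring and repeated quantile normalization. Leaving out 1 WT ND array can only keep or widen a gap, so those values are no check of stability. Without replicate 1 the gaps were 3.06 for Mme, -2.81 for Asic5, 2.38 for Abcd2 and 0.64 for Tmem260. They were 0.38 for Dad1 without replicate 2 and 0.37 for Atox1 without replicate 3.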

Other observations

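Further genes with WT ND wholly apart stood near Arhgef40 and Tmem260 in the order of gaps, and were named after their values were seen. Slc39a14, a transporter of zinc and iron, lay between 6.66 and 7.78 in the 16 other arrays and between 5.94 and 6.26 in WT ND. Mtrr, which keeps methionine synthase active, lay between 4.86 and 5.32 in the others and between 4.16 and 4.49 in WT ND. Tgfbi, an extracellular matrix protein induced by TGF-beta, lay between 6.63 and 7.64 in the others and between 6.17 and 6.24 in WT ND. Tgm1, a transglutaminase, lay between 3.75 and 5.03 in the others and between 3.18 and 3.31 in WT ND. The selenium-binding protein gene Selenbp2 ran the other way, with 4.87 to 9.83 in the others and 10.28 to 10.91 in WT ND, and so did Ift57, a gene of intraflagellar transport, with 1.31 to 2.25 and 2.75 to 3.46. These values are descriptions of genes picked for the split, with no test.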
